A study of Mus musculus with 6 samples.

Results

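Pancreatic polypeptide (PP) cells were examined in single-cell RNA-Seq libraries of dispersed mouse islets. A barcode was taken as a PP cell when it had over 1000 detected genes, at most 10% of its UMIs (unique molecular identifiers, which count captured mRNA molecules) on mitochondrial genes, at least 12% of its UMIs on *Ppy*, under 2% on *Sst*, under 8% on *Gcg* and under 10% on *Ins1* and *Ins2* together. This rule found 276 barcodes among 43445 in all, and among 19721 that met the limits on genes and mitochondrial UMIs. The members numbered 20, 56 and 46 in the WT libraries and 36, 72 and 46 in the KO libraries. The KO mice (β14-3-3ζ–KO) lacked the scaffold protein 14-3-3ζ in β cells, because Cre recombinase expressed from the *Ins1* locus (Ins1-CreThor) removed the floxed exon 4 of *Ywhaz*. The WT mice were littermates that carried the same Cre with unfloxed alleles. Mice of both groups were C57/BL6 by the labels (C57BL/6J in the study's methods) and 12 to 14 weeks old, each library came from the islets of 1 animal as far as the labels say, and dead cells were removed after an overnight recovery. *Ins1* is a β cell gene, so the design does not aim Cre at PP cells, and the 3′ libraries count *Ywhaz* transcripts without showing whether exon 4 was present.

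PP cells are among the rarest endocrine cells of the islet. They release pancreatic polypeptide after a meal, mainly under vagal control, and the peptide acts through the Y4 receptor to restrain exocrine secretion and food intake. Pancreatic polypeptide belongs to the neuropeptide Y family with peptide YY and neuropeptide Y, and all 3 are cut from short prohormones by prohormone convertases and then amidated. PP cells descend from the same endocrine progenitors as α, β and δ cells.

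The label was checked against its 4 markers. *Ppy* was used by the rule and is no evidence for it. *Pyy*, *Pcsk2* (prohormone convertase 2) and *Chga* (chromogranin A) were each detected in 100% of the members. Of these, *Pcsk2* and *Chga* are found in every endocrine cell of the islet, and *Pyy* also had a UMI in 99.9% of α cells and 100% of δ cells, so that detection alone does not tell PP cells from these classes and the level of *Pyy* has to. The genes with the highest fold over all other barcodes, among genes found in at least 25% of members, included *Ppy* (54.8-fold), *Cyp3a13* (40.3-fold), *Ugt2b35* (16.3-fold), *Pyy* (15.1-fold), *Sytl2* (15.1-fold) and *Galnt13* (13.7-fold). No defining gene of a β, δ or nonendocrine cell was among the 20 leading genes. The name PP cells was kept. The rule used no gene besides *Ppy*, *Gcg*, *Sst*, *Ins1* and *Ins2* and the mitochondrial genes.

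*Ppy* and *Pyy* are neighbours. In GRCm38 with the GENCODE vM21 annotation, *Ppy* (ENSMUSG00000017316) lies at chr11:102099930-102101319 and *Pyy* (ENSMUSG00000017311) at chr11:102106676-102107832, both protein coding and on the minus strand, with 5356 bases between them. Because these were the most abundant hormone transcripts of the members, the 250 bases before the outermost start of each gene are shown 5′ to 3′ as RefSeq gives them for GRCm38.p6, at chr11:102101320-102101569 for *Ppy* and chr11:102107833-102108082 for *Pyy*. Capitals mark TATAA, the core of a TATA box, which was searched on both strands.
Ppy: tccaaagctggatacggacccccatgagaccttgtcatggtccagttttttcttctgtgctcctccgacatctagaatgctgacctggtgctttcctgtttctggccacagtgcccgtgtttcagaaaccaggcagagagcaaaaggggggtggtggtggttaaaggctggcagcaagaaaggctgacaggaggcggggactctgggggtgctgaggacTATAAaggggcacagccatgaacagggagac
Pyy: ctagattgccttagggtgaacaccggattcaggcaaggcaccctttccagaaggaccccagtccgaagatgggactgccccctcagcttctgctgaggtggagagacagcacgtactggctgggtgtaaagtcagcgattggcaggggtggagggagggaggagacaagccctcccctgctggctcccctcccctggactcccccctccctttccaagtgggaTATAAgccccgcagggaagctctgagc
TATAA began 31 bases before the start of *Ppy* and 27 bases before that of *Pyy*, on the strand of the gene in both. Of 32851 promoter windows of this length in the table, 22.8% held TATAA on either strand. TAATTA, a core bound by many homeodomain factors, was in neither window and in 4.84% of all windows, which says only that these letters are not in these 250 bases.

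Among the 276 members the *Ppy* share ran from 12.1% to 56.6% of a cell's UMIs, with a median of 34.9% and quartiles of 25.6% and 41.4%. The library medians were 37.2%, 34.1% and 36.6% in WT and 38.1%, 29.3% and 34.6% in KO, lowest in KO replicate 2. The threshold fell in a sparse stretch of this distribution. Among barcodes that met every other limit, 4777 had under 1% *Ppy*, 30 had 1% to 6%, 17 had 6% to 12%, and 276 had more. The member nearest the threshold had 12.1% *Ppy* and the nearest barcode outside it had 10.7%. The caps on other hormones cut through a denser stretch. Of 399 barcodes with at least 12% *Ppy*, 66 exceeded the insulin cap, 26 the *Gcg* cap and 36 the *Sst* cap, and 5 exceeded more than 1. The nearest members and nonmembers had 7.90% and 8.03% *Gcg*, 9.96% and 10.2% insulin, and 1.89% and 2.09% *Sst*. A further 55 barcodes met all of the hormone limits but had over 10% mitochondrial UMIs.

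**Figure D1:**
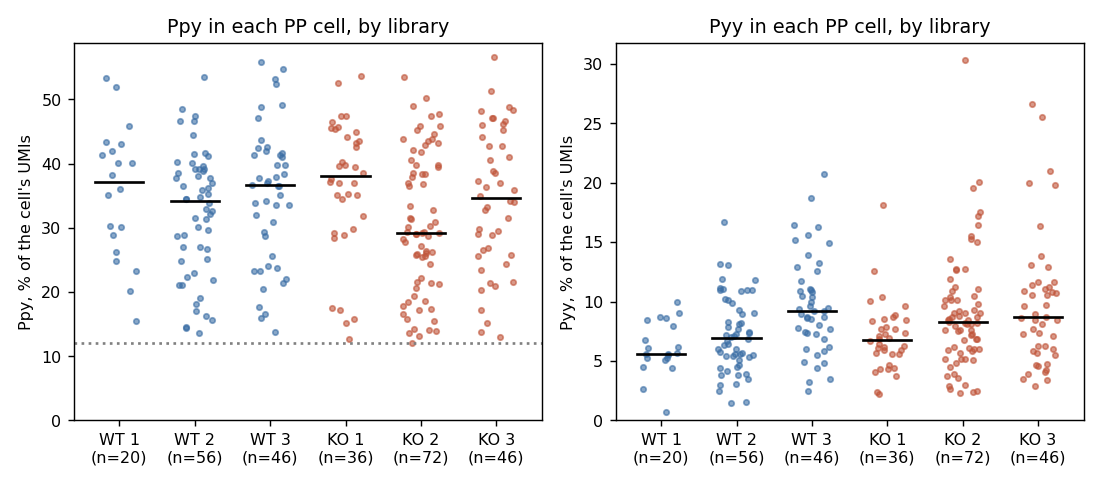
Each point is 1 PP cell, placed by library (x axis) and by the percentage of its UMIs on *Ppy* (left) or *Pyy* (right). Black lines are library medians, and the dotted line is the 12% of *Ppy* that the rule requires. *Ppy* spans 12.1% to 56.6% and *Pyy* 0.682% to 30.3%, and the libraries of both genotypes overlap throughout.

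The members were deep profiles, with a median of 24050 UMIs (8942 to 79847) and 4368 genes (1723 to 8096) per cell. The median UMI count per member was 35317, 23094 and 23971 in the WT libraries and 24126, 19231 and 27706 in the KO libraries. Library totals were 74083947 to 98294915 UMIs, and the summed UMIs of the members outside the 5 hormone genes ranged from 448222 in WT replicate 1 to 1020902 in KO replicate 2. WT replicate 2 and KO replicate 2 stood apart from the other libraries in having more barcodes and medians of 6329 and 6905 UMIs over all barcodes past the limits, against 22317 to 27703 in the other 4. No barcode sequence was shared between members of different libraries. Scrublet, a doublet caller, scored the barcodes with at least 500 genes. The top-scored barcodes of each library were marked, at a share of 0.8% per 1000 barcodes scored. Libraries with more scored barcodes were therefore given more marks. Of the 276 members 23 were marked, 12 of them in KO replicate 2 and 6 in WT replicate 2. In addition, 10 members held over 50 UMIs of *Igkc*, *Apoe* or *Cd74*, genes of B cells and macrophages, and came from WT replicates 1 and 2 and KO replicate 2 only. The 2 members richest in *Igkc* held 6130 of its 6665 UMIs.

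Besides *Ppy*, *Pyy* was the most abundant hormone transcript of the members. It made up 6.25%, 7.05% and 10.3% of the members' UMIs in the WT libraries and 7.21%, 8.46% and 9.94% in the KO libraries. The mean was 8.19% ± 1.64 (SD, n = 6 libraries), against 4.68% ± 0.260 in δ cells, 2% ± 0.462 in α cells and 0.0871% ± 0.0280 in β cells. Every PP library was therefore above every library of the other 3 classes. For tests, *Ppy*, *Gcg*, *Sst*, *Ins1* and *Ins2* were taken out of the counts and the library sizes, and levels are given as CPM, the counts of a gene scaled to a common library total after TMM normalization, over the UMIs that remained. α, δ and β cells were taken by hormone limits of the same kind, and the fits compared class sums within libraries over both genotypes, so the β class includes the β cells of KO mice. On this scale *Pyy* in PP cells was higher by 2.4 ± 0.18 (log2 fold change ± SE) than in α cells (edgeR, adjusted p = 3.44e-11), by 1.4 ± 0.18 than in δ cells (adjusted p = 2.79e-07) and by 6.62 ± 0.22 than in β cells (adjusted p = 2.18e-20).

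The hormone shares that defined the classes are given as a description. *Ppy* was 34.6% ± 3.07 of UMIs in PP cells, 2.48% ± 0.273 in δ cells, 1.04% ± 0.477 in α cells and 0.0607% ± 0.0255 in β cells. In 442 barcodes with at least 20 UMIs over the macrophage genes *C1qa*, *C1qb*, *Csf1r* and *Cd68*, which should make no islet hormone, it was 0.0797% ± 0.0747. The *Ppy* share of β cells was above that of the macrophage-marker barcodes in 4 of 6 libraries and below it in KO replicates 2 and 3, and the shares of δ and α cells lay above it in every library. The *Ins2* share of PP cells, 1.49% ± 0.908, was on average below the 2.01% ± 1.07 of the macrophage-marker barcodes, and lower in 5 of 6 libraries. The insulin UMIs of the class as a whole are therefore not read as expression. Single members stood above this level, and 10 held 8% to 10% insulin. *Gcg* was 0.826% ± 0.647 in the summed PP cells and 0.187% ± 0.131 in the macrophage-marker barcodes. The sum was carried by a minority of the members, since the median member held 0.0889%, below the level of the macrophage-marker barcodes.

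A subset of the members held more *Gcg* than the rest. In 44 of the 276 it was 2% to 8% of UMIs, with 19 of these in KO replicate 2, 10 in WT replicate 2 and 9 in KO replicate 3, and Scrublet marked 7 of the 44. Their summed counts held 3068 *Ttr* (transthyretin), 53.6 *Irx2* and 34.9 *Irx1* CPM outside the 5 hormones, without TMM scaling. The 232 members with under 2% *Gcg* held 874, 18.8 and 4.04, and α cells 15422, 157 and 92.5. Per 1000 *Gcg* UMIs, the 44 members had 41.9 *Ttr* and 0.732 *Irx2* UMIs, and α cells had 52.9 and 0.537. These values describe cells chosen by *Gcg* and carry no test. Whether the 44 are mixed droplets or cells with both programs was not tested.

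No other peptide gene of the neuropeptide Y family was found at a testable level. *Npy* had 2 UMIs over all members, and its receptor genes *Npy1r*, *Npy2r*, *Npy4r*, *Npy5r* and *Npy6r* had 0. A gene with 0 of 276 cells allows a share of up to 1.09% of cells with a UMI. *Cartpt*, which other endocrine cells can express, also had 0 UMIs, and *Ghrl* (ghrelin) had 1. Of the 21 other peptide genes on the list, 4 passed the filter on sparse genes, under which at least 1 class had to show a UMI in over 15% of its cells. *Iapp* (islet amyloid polypeptide) was at 3586, 6312 and 3629.7 CPM in the WT libraries and 4829, 7363 and 8553 CPM in the KO libraries. The genotypes overlapped, with a log2 fold change of KO over WT of 0.62 (adjusted p = 0.989). This change was called with no filter on sparse genes (adjusted p = 0.0082) and in a fit with a replicate block (adjusted p = 0.043). Outside the 5 hormones and without TMM scaling, the macrophage-marker barcodes held 3319 CPM of *Iapp* and PP cells 5583, and the part of free RNA in this level and in the difference between genotypes was not tested. *Iapp* was lower than in δ cells (31528 ± 2916 CPM, log2 fold change −2.51 ± 0.16, adjusted p = 2.80e-13) and β cells (59313 ± 3948 CPM, −3.43 ± 0.17, adjusted p = 1.35e-16), and it differed from α cells by 0.39 ± 0.15, which did not pass. *Pdyn* (prodynorphin) was lower than in δ and β cells, with log2 fold changes of −3.32 and −5.12.

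Over all genes, a gene was called different between PP cells and another class when its adjusted p was under 0.05 and its log2 fold change exceeded 1 in size. Of 9758 genes tested, 310 were called higher in PP cells than in α cells (3.18%) and 224 lower (2.30%). Against δ cells 277 were higher (2.84%) and 492 lower (5.04%), and against β cells 712 were higher (7.30%) and 657 lower (6.73%). PP cells therefore differed in the fewest genes from α cells (5.47% of genes), then from δ cells (7.88%) and then from β cells (14.0%). The classes differ in cell number and depth, which sets how many genes can pass, and the 3 shares were not tested against each other. Of the 9758 genes, 166 passed the filter on sparse genes through PP cells alone and 1014 through other classes and not PP cells. The rule also lets members hold up to 8% *Gcg*. With only members under 2% *Gcg*, 615 genes were called against α cells, 779 against δ cells and 1410 against β cells.

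*Irx1*, an Iroquois homeobox factor, was at 2.25, 12.5 and 14.1 CPM in the WT libraries and 9.62, 14.1 and 5.29 CPM in the KO libraries, against 92.3 ± 15.7 in α cells (SD, n = 6). *Irx2*, of the same family, was at 15.8, 17.1 and 29.7 CPM in the WT libraries and 34.6, 27.1 and 38.3 CPM in the KO libraries, against 157 ± 22.4. Every PP library lay below every α cell library for both genes, and the log2 fold changes were −3.21 ± 0.28 and −2.51 ± 0.17 (adjusted p = 4.80e-10 and 1.40e-12). Both were higher than in β cells, by 3.54 and 2.9. The members with 2% to 8% *Gcg* held 28 of the 43 *Irx1* UMIs and 43 of the 113 *Irx2* UMIs. *Pou3f4*, a POU-homeodomain factor, was at 0, 0 and 1.56 CPM in the WT libraries and 3.85, 8.66 and 10.6 CPM in the KO libraries and was called lower than in α cells (−1.96 ± 0.43, adjusted p = 0.00104), although it rested on 19 UMIs and single libraries overlapped.

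*Etv1*, an ETS factor, was at 398, 453 and 438 CPM in the WT libraries and 464, 398 and 513 CPM in the KO libraries. It was higher than in β cells (2.63 ± 0.14, adjusted p = 4.79e-16), with differences of −0.42 and 0.3 from α and δ cells that were below the required size. *Peg3*, an imprinted zinc finger factor, was at 1653 ± 181 CPM in PP cells and 1831 ± 191 in α cells, and was not called against any class.

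Of the β cell factors, *Nkx6-1* was at an intermediate level. It was at 106, 122 and 95.4 CPM in the WT libraries and 173, 107 and 109.7 CPM in the KO libraries, against 35.7 ± 5.04 in α cells, 25.3 ± 8.53 in δ cells and 289 ± 21.3 in β cells. PP cells were above all α and δ cell libraries (log2 fold changes 1.73 ± 0.16 and 2.25 ± 0.16) and below all β cell libraries (−1.31 ± 0.12, adjusted p = 1.29e-10). *Nkx6-1* had a UMI in 69.9% of PP cells and 13.8% of the macrophage-marker barcodes, at median depths of 24050 and 13049 UMIs, or in 18.1% and 2.71% after thinning each cell to 2000 UMIs outside the hormones. *Pdx1*, which is needed for pancreas formation and insulin transcription, was at 47.3, 44.5 and 42.2 CPM in the WT libraries and 32.7, 47.6 and 37 CPM in the KO libraries. This was above α cells (1.53 ± 0.14) and below δ cells (−1.35 ± 0.1) and β cells (−1.95 ± 0.092), again with no overlap of libraries. *Mafa* and *Mnx1* were lower than in β cells, with log2 fold changes of −3.75 and −3.15 and no call against α or δ cells. Of the 7 factors on this list 4 passed the filter, and *Pax4* and *Nkx6-2* had 0 UMIs in the members. *Nkx6-3*, a related homeobox factor listed for δ cells, was too sparse to be tested, with 41 UMIs in 11.6% of the members and a UMI in 0.464% of δ cells, 0.448% of α cells and 0.0321% of β cells. *Hhex*, the defining factor of δ cells, was at 7.39 ± 5.26 CPM in PP cells and 285 ± 27.5 in δ cells (log2 fold change −5.29 ± 0.32, adjusted p = 5.53e-14).

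**Figure D2:**
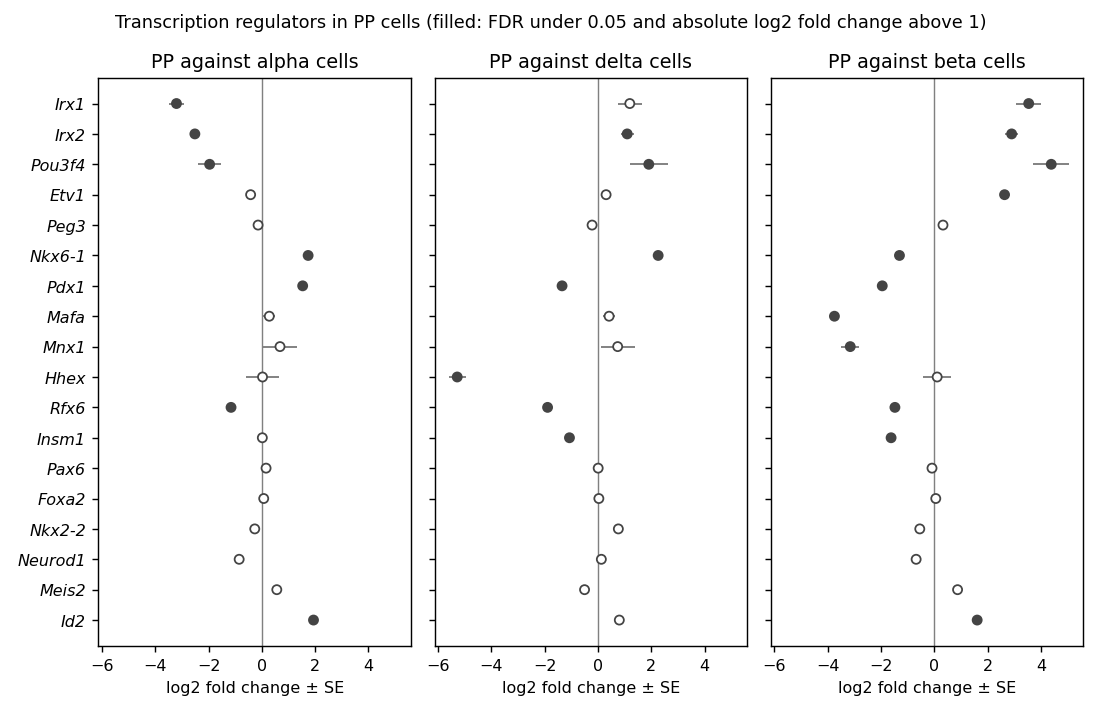
Log2 fold change (x axis) of transcription regulators in PP cells against α (left), δ (middle) and β cells (right), as points with bars of 1 SE, with call status shown by filling. *Irx1* and *Irx2* sit to the left against α cells and to the right against β cells, whereas *Nkx6-1* and *Pdx1* sit to the right against α cells and to the left against β cells.

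Among factors shared by all endocrine cells, *Pax6* differed by 0.16, 0.0027 and −0.087 and *Foxa2* by 0.069, 0.028 and 0.054 from α, δ and β cells on the log2 scale. *Rfx6*, a winged-helix factor that acts in endocrine differentiation, was lower than in each class, at 31.5, 30.8 and 7.82 CPM in the WT libraries and 25, 20.6 and 23.8 CPM in the KO libraries. These 6 values were below those of every library of the other classes, with log2 fold changes of −1.16 ± 0.17, −1.9 ± 0.16 and −1.48 ± 0.15. WT replicate 3 had the lowest value, and without it the difference from α cells was −0.92, under the required size with an adjusted p of 4.2e-05. *Insm1* was lower than in β cells (−1.62 ± 0.11, adjusted p = 1.24e-13). *Fev* was at 22.7 ± 7.1 CPM, against 27.5 ± 8.86 in α cells and 24.9 ± 4.39 in δ cells, which did not pass the test, and was higher than in β cells (4.17 ± 0.27). *Tph1* and *Slc6a4*, genes of serotonin synthesis and uptake, had 0 UMIs in the members. Of the 16 factors on the list, 14 passed the filter, of which 1 was called higher and 1 lower than in α cells, 0 and 3 than in δ cells, and 3 and 3 than in β cells. Over all genes the shares called in either direction were 5.47%, 7.88% and 14.0%.

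Of 15 genes listed as candidates for PP cells, 10 passed the filter. *Tspan8*, a tetraspanin of the cell surface, was at 732, 707 and 912 CPM in the WT libraries and 825, 563 and 826 CPM in the KO libraries. All PP libraries were above those of the other classes, by 3.79 ± 0.13 against α cells (adjusted p = 9.80e-19), 1.06 ± 0.11 against δ cells (4.83e-09) and 5.1 ± 0.12 against β cells (5.22e-24). *Tspan8* had a UMI in 98.6% of PP cells and 4.75% of the macrophage-marker barcodes. *Id2*, an inhibitor of basic helix-loop-helix factors, was at 351, 428 and 566 CPM in the WT libraries and 427, 287 and 403 CPM in the KO libraries, higher than in α cells (1.94 ± 0.14) and β cells (1.61 ± 0.12), with a difference of 0.8 ± 0.13 from δ cells that was below the required size. *Meis2*, a homeobox cofactor, differed by 0.56, −0.51 and 0.87 from the 3 classes and was not called. *Aqp3* had 1 UMI in all members. Over the list, 4 genes were called higher and 0 lower than in α cells, 4 and 2 than in δ cells, and 6 and 0 than in β cells. Over all genes 3.18% were called higher and 2.30% lower than in α cells, 2.84% and 5.04% than in δ cells, and 7.30% and 6.73% than in β cells. The list was drawn up with results of these data known and is no independent support.

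Of 850 genes with an adjusted p under 0.05 against all 3 classes, 51 were called higher in PP cells against each and 31 lower against each. In 32 of the 51 every PP library was above every library of the other classes, and in 21 of the 31 every PP library was below. Over all genes, the PP libraries lay wholly above or below those of α cells in 10.1%, of δ cells in 14.1% and of β cells in 28.4%. The 51 and the 31 were chosen by fits of these same libraries. Their separation was largely set by that choice and is no support for the calls. The 15 genes with the highest smallest fold change and the 15 with the lowest largest fold change were then described. Of the first 15, 14 (all but *Cd9*) passed the filter on sparse genes through PP cells alone, as did 31 of the 51, so that they could be tested only because they were high there. Their differences are therefore given as a description. The 14 were also called with no filter on sparse genes. Of the second 15, 10 passed through other classes and not through PP cells, as did 22 of the 31.

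*Tenm1* (teneurin 1, a synaptic adhesion protein) was at 49.5, 14.8 and 32.8 CPM in the WT libraries and 26.9, 9.74 and 10.6 CPM in the KO libraries, against 0.876 ± 0.73 in α cells, 0.865 ± 0.526 in δ cells and 0.162 ± 0.122 in β cells. The log2 fold changes were 4.49 ± 0.49, 4.61 ± 0.47 and 7.0 ± 0.4. The gene was sparse, with a UMI in 20.7% of PP cells, and was found in 0 of 442 macrophage-marker barcodes, which allows a share of up to 0.679%. *Lrrtm1*, a leucine-rich synaptic protein, and *Fstl4*, a follistatin-like secreted protein, were at 13.6 ± 6.92 and 13.1 ± 4.29 CPM in PP cells, against 0.694 and 1.11 in α cells. *Ptchd1*, a patched-domain membrane protein, was at 17.3 ± 4.92 CPM and higher by 3.13, 2.59 and 7.44. *St8sia6*, a sialyltransferase, was higher by 3.03, 6.45 and 5.73. Of 22 genes on a list of neuronal and adhesion genes, which holds none of these, 13 passed the filter. Of the 13, 0 were called against α cells, 1 was called higher and 4 lower than in δ cells, and 5 higher and 4 lower than in β cells, where 5.47%, 7.88% and 14.0% of all genes were called in either direction.

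*Cyp3a13*, a cytochrome P450, was at 65.3, 31.9 and 57.9 CPM in the WT libraries and 50, 21.6 and 63.5 CPM in the KO libraries. The lowest PP library was above the highest of any other class, and the log2 fold changes were 3.09 ± 0.31, 6.59 ± 0.47 and 8.62 ± 0.35. It had a UMI in 37.3% of PP cells and 0.226% of the macrophage-marker barcodes. *Ugt2b35*, a UDP-glucuronosyltransferase, was at 18, 25.1 and 53.2 CPM in the WT libraries and 42.3, 18.4 and 39.7 CPM in the KO libraries and was higher by 1.9 ± 0.3, 3.19 ± 0.34 and 6.41 ± 0.33. Both belong to multigene families, and how reads that fit several members were counted was not examined.

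*Cd9*, a tetraspanin, was the most abundant of the 15 genes, at 151, 140.3 and 178 CPM in the WT libraries and 171, 119 and 153 CPM in the KO libraries. It was at 29.7 ± 3.49 CPM in α cells, 12.2 ± 7.88 in δ cells and 6.14 ± 3.19 in β cells, with log2 fold changes of 2.35 ± 0.24, 3.62 ± 0.26 and 4.66 ± 0.21. The macrophage-marker barcodes also held it, in 67.9% of barcodes against 77.5% of PP cells. *Hspb8*, a small heat shock protein, was higher by 2.31, 2.64 and 2.52, *Plk2*, a polo-like kinase, by 1.88, 2.41 and 2.16, and *Cthrc1*, a secreted collagen triple helix protein, by 2.61, 3.21 and 2.95. *Lrrk1*, *Rassf9* and *4732463B04Rik* completed the calls, at 24.7 ± 7.96, 16.6 ± 6.5 and 30.5 ± 9 CPM. For *Rassf9* the lowest PP library (9.26 CPM) was below the highest library of α cells (11.9 CPM) and of δ cells (10.0 CPM). *Klf2*, a Krüppel-like factor, was the least firm. Single libraries of α and β cells, though none of δ cells, overlapped PP cells. Its log2 fold change of 2.42 from α cells was 1.83 without WT replicate 1, 2.3 without WT replicate 2, 2.31 without WT replicate 3 and 2.16 without KO replicate 1, with adjusted p of 0.12, 0.094, 0.062 and 0.09. Without the library block *Klf2* was called against no class, with differences of 1.71, 3.3 and 1.18 from α, δ and β cells (adjusted p = 0.3, 0.074 and 0.31). Its call against α cells was also lost without called doublets (adjusted p = 0.054) and with at most 5% mitochondrial UMIs (1.91, adjusted p = 0.17).

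**Figure D3:**
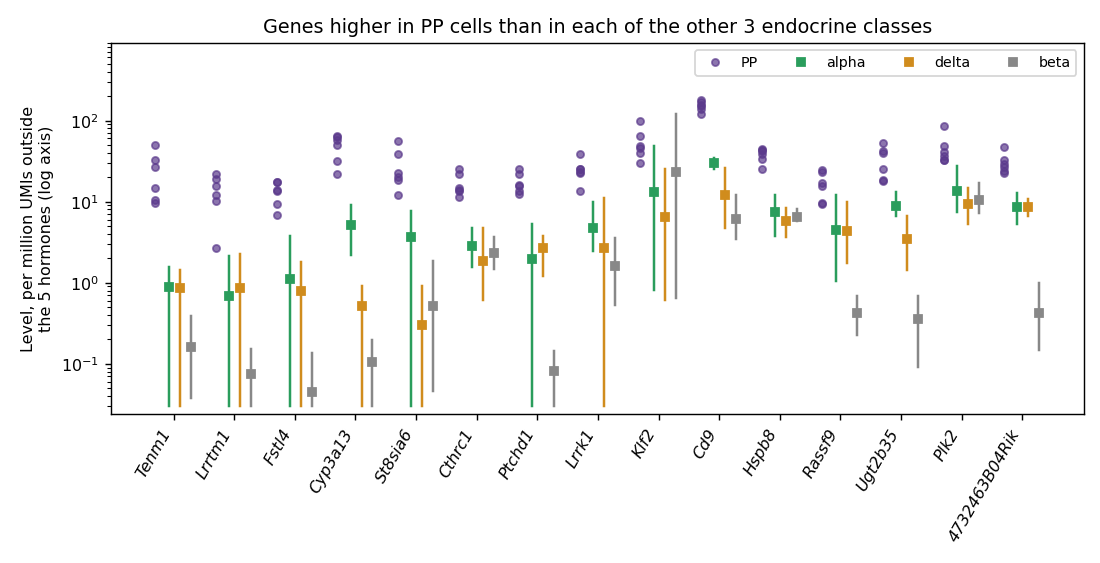
Level on a log axis (CPM, y axis) of the 15 genes with the highest smallest fold change. Purple points are the 6 PP libraries, and squares with bars are the mean and the lowest and highest library of α, δ and β cells, with values of 0 drawn at the lower edge. For *Cyp3a13* and *Cd9* every PP library is above all of the bars, and for *Klf2* the bars of α and β cells, but not that of δ cells, reach into the PP values.

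Of the 15 genes at the other end, *Sim1*, a basic helix-loop-helix PAS factor, was at 9.01, 4.56 and 0 CPM in the WT libraries and 1.92, 9.74 and 5.29 CPM in the KO libraries, against 62.4 ± 11.2 in α cells, 87.2 ± 11.3 in δ cells and 17.7 ± 2.24 in β cells. All PP libraries were below the others, with log2 fold changes of −3.55 ± 0.26, −4.01 ± 0.24 and −1.72 ± 0.3. *Sall1*, a zinc finger factor, had 0 UMIs in the members. Against a floor of 3 counts over the 6 PP sums it was at least 18.9-fold lower than in δ cells and at least 3.96-fold lower than in β cells. Against α cells, where it was itself low at 1.5 CPM, it was at least 2.08-fold lower, a call that was lost without WT replicate 2 (adjusted p = 0.078), WT replicate 3 (0.086) or KO replicate 1 (0.062).

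*Mrln* (myoregulin, a micropeptide that restrains the calcium pump SERCA) was at 29.3, 79.8 and 36 CPM in the WT libraries and 55.8, 63.9 and 51.6 CPM in the KO libraries, lower than in α, δ and β cells with log2 fold changes of −1.65 ± 0.14, −2.62 ± 0.13 and −1.65 ± 0.13. *Scnn1b*, a subunit of the epithelial sodium channel, was at 33.8, 30.8 and 12.5 CPM in the WT libraries and 19.2, 28.1 and 27.8 CPM in the KO libraries, lower with fold changes on the same scale of −1.76 ± 0.18, −1.98 ± 0.17 and −2.26 ± 0.16. The PP libraries of both genes lay below those of the other classes. *Lrp8*, a receptor of the LDL receptor family, was at 13.2 ± 7.29 CPM against 60.9 ± 2.97, 98.5 ± 9.06 and 38.7 ± 2.33 in α, δ and β cells. *Lrrn1*, *Agt* (angiotensinogen), *Rspo4* (an R-spondin), *Relt*, *Lrrc10b* and *5330439M10Rik* were likewise called lower against all 3 classes, with log2 fold changes from −4.27 (*5330439M10Rik* against δ cells) to −1.42 (*Lrrc10b* against α cells). *S100a4* and *Crybg1* were called against all 3, but at 1.17 ± 1.46 and 0.702 ± 1.26 CPM they rested on few UMIs. The *S100a4* difference from α cells, −3.41, was −1.82 without WT replicate 2 (adjusted p = 0.18) and 0.43 without doublet calls. The *Crybg1* difference from α cells, −1.9, was no longer called without WT replicate 1, WT replicate 2, KO replicate 1, KO replicate 2 or KO replicate 3, where it was −1.77, −1.63, −1.66, −1.95 and −1.7.

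Of the enzymes that process prohormones, *Pcsk2* was at 3881, 5168 and 4537 CPM in the WT libraries and 4679, 4193 and 4976 CPM in the KO libraries, and differed by −0.42 ± 0.071, 0.062 ± 0.071 and 0.27 ± 0.071 from α, δ and β cells, all below the required size. *Cpe* (carboxypeptidase E) differed by −0.51, 0.41 and −0.47, and *Pam*, the amidating enzyme, by −0.79, −0.49 and −0.081. *Pcsk1* was at 31.5, 50.2 and 45.4 CPM in the WT libraries and 46.2, 36.8 and 70.1 CPM in the KO libraries, above α cells and below β cells, with log2 fold changes of 1.23 ± 0.18 and −2.8 ± 0.12 (adjusted p = 8.14e-06 and 1.06e-17), without overlap of libraries. *Scg5*, the chaperone of Pcsk2, was higher than in β cells (1.08 ± 0.077), and *Kctd12*, which is on the list but encodes a subunit of GABA-B receptors and no processing enzyme, was lower than in δ cells (−1.17 ± 0.13). Of 14 genes on the list 13 passed the filter, and 1 was called against α cells, 1 (*Kctd12*) against δ cells and 2 against β cells, close to the 5.47%, 7.88% and 14.0% over all genes.

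Among granule proteins, *Chga* was at 1886, 1928 and 1462 CPM in the WT libraries and 2103, 2265 and 2649.6 CPM in the KO libraries, lower than in α and β cells with log2 fold changes of −1.33 ± 0.11 and −1.63 ± 0.11, and differed from δ cells by −0.58 ± 0.11, below the required size. *Chgb* was below δ cells (−1.55 ± 0.082, adjusted p = 3.52e-15), and *Scg2* (secretogranin II) was above α cells (1.3 ± 0.093, adjusted p = 8.62e-12). *Vgf*, a precursor of several neuropeptides, was at 6.75, 4.56 and 6.26 CPM in the WT libraries and 3.85, 10.8 and 3.97 CPM in the KO libraries, lower than in α and β cells (−2.94 ± 0.27 and −2.85 ± 0.25), and had a UMI in 7.61% of PP cells and 4.07% of the macrophage-marker barcodes. *Slc30a8*, the zinc transporter of insulin granules, was at 92.3, 196 and 150.1 CPM in the WT libraries and 80.8, 228 and 139 CPM in the KO libraries, below α cells (−2.63 ± 0.17) and β cells (−1.56 ± 0.17). *Resp18* and *Cltrn* (collectrin) were higher than in β cells only, by 1.44 and 1.88. Of 15 genes on the list 14 passed the filter, of which 1 and 3 were called higher and lower against α cells, 1 and 1 against δ cells, and 3 and 4 against β cells (all genes: 5.47%, 7.88% and 14.0% in either direction).

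Of 28 genes of the exocytosis machinery 24 passed the filter, and 2 were called against α cells, 5 against δ cells and 7 against β cells, where 5.47%, 7.88% and 14.0% of all genes were called. *Rab3c*, a vesicle GTPase, was at 56.3 ± 9.91 CPM and 66.1 ± 12.1 in α cells, and was higher than in δ cells (2.38 ± 0.19) and β cells (4.09 ± 0.17). *Rab3b* was above α cells (1.7 ± 0.18) and below δ cells (−1.38 ± 0.13). *Cadps*, which primes dense-core vesicles, was at 162, 184 and 216 CPM in the WT libraries and 214, 175 and 219 CPM in the KO libraries, not called against α or β cells and above δ cells (2.61 ± 0.14, adjusted p = 5.90e-15). *Syt5*, a synaptotagmin, was at 13.5, 10.3 and 10.9 CPM in the WT libraries and 13.5, 22.7 and 30.4 CPM in the KO libraries and was called lower than all 3 classes, although single libraries overlapped those of α cells (−1.39 ± 0.21, −2.2 ± 0.19 and −1.43 ± 0.19). *Sytl4* (granuphilin) and *Syt4* were lower than in β cells (−3.53 and −1.58).

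Of 13 genes that couple glucose to secretion 10 passed the filter, of which 0 were called against α cells, 3 against δ cells and 4 against β cells (all genes: 5.47%, 7.88% and 14.0%). *Abcc8* and *Kcnj11*, the subunits of the K-ATP channel, were at 417 ± 27.2 and 88.1 ± 14.3 CPM and were not called against any class. The β cell glucose transporter *Slc2a2* and *G6pc2* were lower than in β cells (−3.88 and −3.84) and did not pass against α or δ cells. *Hk1*, a hexokinase of high glucose affinity, was at 22.5, 11.4 and 10.9 CPM in the WT libraries and 21.2, 22.7 and 13.2 CPM in the KO libraries, against 20.9 ± 4.73 in α cells, 2.6 ± 1.76 in δ cells and 1.69 ± 1.8 in β cells (log2 fold change 3.36 ± 0.42 against β cells, adjusted p = 7.00e-08). Among other channels, *Kcnk3*, a tandem-pore potassium channel, was at 94.6, 102 and 127 CPM in the WT libraries and 109.7, 124 and 116 CPM in the KO libraries, higher than in δ cells by 1.53 ± 0.12 and β cells by 5.21 ± 0.13. *Kcnb2*, a delayed rectifier subunit, was at 6.6 ± 5.03 CPM and lower than in each class (−1.6 ± 0.29, −2.71 ± 0.25 and −2.16 ± 0.24). *Scn3a*, a sodium channel, was above β cells by 2.12 ± 0.082 and differed from α and δ cells by 0.15 and −0.047, which did not pass. Of 30 channel genes 23 passed the filter, and 1 was called against α cells, 7 against δ cells and 10 against β cells (all genes: 5.47%, 7.88% and 14.0%).

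*Chrm3*, the muscarinic M3 receptor that carries vagal signals in islets, was at 45, 39.9 and 45.4 CPM in the WT libraries and 46.2, 46.5 and 41 CPM in the KO libraries. β cells were at 36 ± 2.91, a log2 difference of 0.3 ± 0.13 that did not pass. α and δ cells were at 3.25 ± 2.07 and 6.59 ± 1.97 CPM. PP cells were above both, with log2 fold changes of 3.72 ± 0.24 and 2.71 ± 0.2 (adjusted p = 6.01e-13 and 4.81e-12) and no overlap of libraries. *Chrm3* had a UMI in 43.8% of PP cells and 3.17% of the macrophage-marker barcodes, or 9.42% and 0.452% after thinning. *Galr1*, a galanin receptor, was at 6.75, 12.5 and 9.38 CPM in the WT libraries and 5.77, 5.41 and 14.5 CPM in the KO libraries, above α and δ cells (1.88 ± 0.41 and 2.15 ± 0.41) and below β cells (−1.45 ± 0.24). Its call against α cells was lost with at most 5% mitochondrial UMIs (1.56, adjusted p = 0.072). *Avpr1b*, the vasopressin receptor, was at 20.3, 16 and 28.1 CPM in the WT libraries and 30.8, 18.4 and 33.1 CPM in the KO libraries, below α cells (−1.63 ± 0.28) and above δ and β cells (2.86 ± 0.45 and 5.32 ± 0.42). *Glp1r* and *Gipr*, the incretin receptors, were lower than in β cells (−3.24 ± 0.13 and −1.34 ± 0.16). *Ffar1*, a receptor of long-chain fatty acids, was above δ cells (1.6 ± 0.25) and below β cells (−2.14 ± 0.15). *Gria2*, a glutamate receptor subunit, was at 282 ± 36.8 CPM, above β cells by 3.27 ± 0.089. *Ghsr*, the ghrelin receptor, had 2 UMIs in the members and was at 32.8 ± 5.08 CPM in δ cells. Of 42 receptor genes 41 were in the annotation and 25 passed the filter, of which 2 were called higher and 3 lower than in α cells, 7 and 6 than in δ cells, and 5 and 12 than in β cells (all genes, in either direction: 5.47%, 7.88% and 14.0%).

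Immediate early genes, which rise within minutes of stimulation or handling, were mostly called higher than in β cells, often than in α cells and rarely than in δ cells. *Fos* was at 412, 463 and 559.9 CPM in the WT libraries and 456, 426 and 389 CPM in the KO libraries, against 168 ± 93 in α cells, 441 ± 60.3 in δ cells and 64.1 ± 22.5 in β cells. *Jun* was at 973, 1035 and 1364 CPM in the WT libraries and 1260.2, 963 and 924 CPM in the KO libraries. The log2 fold changes of *Fos* were 1.53 ± 0.19, 0.04 ± 0.18 and 2.89 ± 0.19, and those of *Jun* 1.49 ± 0.12, 0.31 ± 0.11 and 3.4 ± 0.12, of which the δ cell values were below the required size. *Ier2* was above α and β cells by 2.03 and 3.22. Of 16 genes 15 passed the filter, with 7 called higher and 0 lower than in α cells, 2 and 1 than in δ cells, and 13 and 0 than in β cells, where 3.18%, 2.84% and 7.30% of all genes were called higher. The median log2 fold changes of the list were 0.99, 0.2 and 2.15, against −0.0012, 0.014 and 0.013 over all genes. The median mitochondrial share, which can mark stressed cells, was 3.61% in PP cells, 5.20% in α cells, 3.97% in δ cells and 3.59% in β cells, and its part in these differences was not tested.

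Markers of other cell types were uneven between the PP libraries. The summed level of 6 macrophage markers was 519.8, 615 and 44.2 CPM in the WT libraries and 30.9, 585 and 49.6 CPM in the KO libraries, without TMM scaling. That of 4 B cell markers was 178, 101 and 0 CPM in WT and 0, 111 and 0 CPM in KO. WT replicates 1 and 2 and KO replicate 2 were high in both, and these are the libraries that held the 10 members rich in *Igkc*, *Apoe* or *Cd74*. *C1qa*, the only one of the 6 macrophage markers to pass the filter, was called higher than in α and β cells, by 1.27 and 1.2. Without those members its differences were 0.59 and 0.18 and no longer called, and without WT replicate 2 they were 0.9 and 0.82, also not called. *Cd79a*, the only B cell marker to pass, was called higher than in δ cells (1.72, adjusted p = 0.0497) and had 0 UMIs in WT replicate 3 and KO replicates 1 and 3. Without the members rich in *Igkc*, *Apoe* or *Cd74* this difference was 0.75, without called doublets it was −0.29, and it was not called in either case or without any 1 of WT replicates 1, 2 and 3 and KO replicates 1 and 3, where it was 1.07, 2.12, 1.82, 1.9 and 1.83. Summed endothelial markers were 0 to 75.3 CPM, stellate markers 8.82 to 35.5 CPM, T cell markers 0 to 87.2 CPM and acinar markers 27.2 to 69.1 CPM. Of the defining genes, *Sox10* (Schwann cells) and *Cftr* (duct) had 0 UMIs. The ductal list read 661 to 1272 CPM, which was *Spp1* and *Krt8* for all but 14 UMIs. *Spp1* (osteopontin), at 903, 955 and 1273 CPM in the WT libraries and 1083, 587 and 697 CPM in the KO libraries, was above δ cells by 3.14 ± 0.31 and β cells by 3.47 ± 0.3. It was also called above α cells (1.08 ± 0.28), a difference that was 0.94 and not called without WT replicate 3.

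Within libraries, the genes whose level across members was most like the *Ppy* share were sought by Spearman correlation, over 3370 genes found in at least 50% of members. *Pyy*, per UMI outside the hormones, was first, with a median rho of 0.40 over the 6 libraries (0.27 to 0.51). It was followed by *Btg2* (0.36), *Ctsl* (0.33), *Jun* (0.33), *Ubb* (0.33), *Spp1* (0.32), *Egr1* (0.32), *Bsg* (0.31), *Scg5* (0.31) and *Krtcap2* (0.30). The lowest were *Tmsb4x* (−0.38), *Slc30a8* (−0.35), *Ybx1* (−0.31), *Rpn1* (−0.30) and *Igfbp7* (−0.30). These correlations were weak, and the members of a library share its depth and free RNA. Taken as shares of all UMIs, where more *Ppy* leaves less room for other transcripts, the rho of *Ppy* and *Pyy* was 0.034 at the median (−0.011 to 0.25). The rho of the *Ppy* share with the mitochondrial share was −0.43 at the median (−0.75 to −0.35). The rule limited both shares, and both are parts of the same UMI total. A negative rho is therefore built in to some degree, and the value is no result about the cells.

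The design then asked whether loss of 14-3-3ζ in β cells was accompanied by a change in PP cells. Their share of the barcodes that met the limits was 1.14% (95% exact binomial interval 0.695% to 1.75%), 1.10% (0.836% to 1.43%) and 2.55% (1.87% to 3.39%) in the WT libraries and 1.56% (1.10% to 2.16%), 1.13% (0.888% to 1.43%) and 1.89% (1.39% to 2.51%) in the KO libraries. These intervals cover counting error only. WT replicate 3 was highest and the groups overlapped. The means were 1.60% ± 0.825 and 1.53% ± 0.378 (SD, n = 3 each), a difference of −0.068 percentage points (2-sided exact permutation test, p = 0.9). Without WT replicate 3 the difference was 0.408 percentage points, and without KO replicate 2 it was 0.129. With 3 libraries in each group this test cannot give a p below 0.1. Among PP, α, δ and β barcodes alone the shares were 2.73% ± 0.907 and 2.43% ± 0.217 (exact permutation p = 0.8). The median number of UMIs per member was 27460 ± 6818 in WT and 23687 ± 4254 in KO, and of genes 4635 ± 591 and 4217 ± 388 (exact permutation p = 0.6 for each).

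*Ywhaz*, the targeted gene, lies at chr15:36770770-36796929 on the minus strand (ENSMUSG00000022285). In PP cells it was at 146, 174 and 139.8 CPM in the WT libraries and 100.4, 161 and 130.0 CPM in the KO libraries. KO replicate 1 was lowest, and the groups overlapped. The log2 fold change of KO over WT was −0.21 ± 0.16 (SE), with a 95% interval of −0.54 to 0.11 and an adjusted p of 0.989 in edgeR. A UMI of *Ywhaz* was found in 95%, 92.9% and 80.4% of PP cells in the WT libraries and in 86.1%, 86.1% and 87% in the KO libraries. In β cells, where Cre acts, *Ywhaz* was at 248, 282 and 263 CPM in WT and 37.2, 68.3 and 36.6 CPM in KO, without overlap. The log2 fold change was −2.48 ± 0.25 (edgeR, adjusted p = 0.141 over 8733 genes). A *Ywhaz* UMI was found in 89.3%, 67.5% and 89.7% of WT β cells and in 44.4%, 36.3% and 38.8% of KO β cells. The study left out β cells of KO mice with incomplete deletion, whereas all were kept here. The difference between the changes in PP and β cells was tested in 1 model with a genotype by class term. The change in PP cells was higher than that in β cells by 2.29 ± 0.17 on the log2 scale (edgeR, adjusted p = 2.3e-07). In all 3 KO mice *Ywhaz* was higher in PP cells than in β cells, and in all 3 WT mice it was lower. The genotype by class term had an adjusted p under 0.05 for 3 of 9235 genes (0.0325%), the others being *H2-Aa* and *Cd74*, which are genes of antigen-presenting cells and were named after their values were seen. *Cd74* in PP cells was at 551, 685 and 5.77 CPM in the WT libraries and 1.79, 488 and 2.43 CPM in the KO libraries, high in the libraries that held the 10 members rich in *Igkc*, *Apoe* or *Cd74*. In α cells the log2 fold change of *Ywhaz* was −0.044 ± 0.12, and in δ cells 0.026 ± 0.11.

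**Figure D4:**
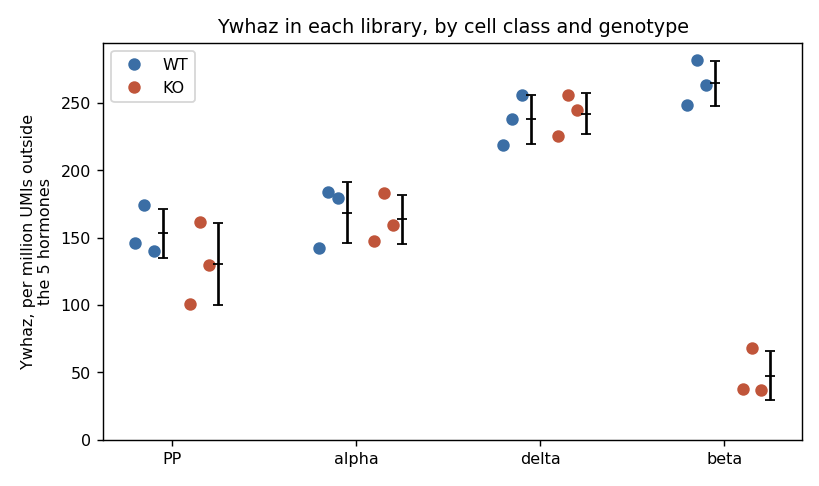
*Ywhaz* level (CPM, y axis) in each WT (blue) and KO (red) library for PP, α, δ and β cells, with the mean and SD of 3 libraries in black. The PP libraries of both genotypes lie between 100.4 and 174 CPM, and the β cell sums of KO mice lie at 36.6 to 68.3 CPM, below the WT sums of 248 to 282 CPM.

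Over all genes, 0 of 9119 were called between KO and WT PP cells in edgeR (0%) at an adjusted p under 0.05 and a log2 fold change above 0.1 in size, and DESeq2 also called 0. The same kind of edgeR fit did not call the targeted gene *Ywhaz* in β cells (−2.48, adjusted p = 0.141). A count of 0 therefore does not show that no gene changed. At an unadjusted p under 0.05 edgeR had 365 genes (4.00%) and DESeq2 64. In 875 genes (9.60%) the 3 KO libraries did not overlap the 3 WT libraries, with 425 above (4.66%) and 450 below (4.93%). The 5 genes with positive fold change and the lowest p were *Fbp1*, *Rpl9-ps6*, *Fgl2*, *Nop10* and *Naa15*, and the 5 with negative fold change were *Gm10076*, *Nudcd3*, *Dhx37*, *Fgb* and *Sat1*. *Fbp1*, a gluconeogenic enzyme, was at 4.18, 6.32 and 1.44 CPM in the WT libraries and 19.7, 20.2 and 24.3 CPM in the KO libraries, a log2 fold change of 2.30 ± 0.44 (adjusted p = 0.189), and the KO libraries did not overlap the WT libraries. It had a UMI in 14.9% of PP cells. *Fgl2*, a fibrinogen-like protein, was at 62.7, 80.1 and 76.4 CPM in the WT libraries and 111, 109 and 137 CPM in the KO libraries (0.68 ± 0.16, adjusted p = 0.741). *Sat1*, an enzyme of polyamine breakdown, was at 62.7, 75.9 and 105 CPM in the WT libraries and 43, 47.4 and 54.7 CPM in the KO libraries (−0.75 ± 0.20, adjusted p = 0.989). *Gm10076* was at 138, 369 and 213 CPM in the WT libraries and 95, 93.8 and 129 CPM in the KO libraries (−1.22 ± 0.24, adjusted p = 0.189), and is annotated as a lincRNA. *Rpl9-ps6* (1.10 ± 0.25, adjusted p = 0.741) is named as a copy of a ribosomal protein gene, so that its counts are uncertain. With no filter on sparse genes *Fbp1*, *Fgl2*, *Rpl9-ps6*, *Gm10076* and *Fgb* were called, with adjusted p of 0.0013, 0.025, 0.015, 9.1e-12 and 0.0018 and nearly the same fold changes. They were also called in an edgeR fit with a replicate block, with adjusted p of 0.0045, 0.034, 0.034, 6.9e-08 and 0.022. *Gm10076* was also called when WT replicate 1 was left out (−1.47, adjusted p = 0.028). With 1 library left out, its log2 fold change ran from −1.47 to −0.746. The other 4 had adjusted p of 0.891 (*Nop10*, 0.53), 0.989 (*Naa15*, 0.6), 0.891 (*Nudcd3*, −0.61) and 0.989 (*Dhx37*, −2.1), and *Fgb*, a fibrinogen chain, had 0.989 (−1.14).

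**Figure D5:**
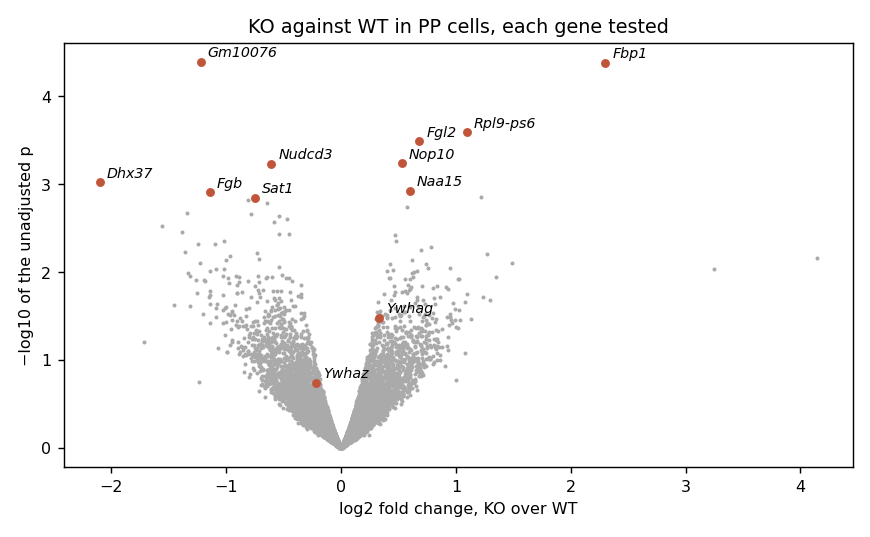
Each grey point is 1 of 9119 genes tested in PP cells, placed by its log2 fold change of KO over WT (x axis) and the −log10 of its unadjusted p (y axis). The named genes are in red. *Ywhaz* lies low in the plot at −0.21, and no point passed the adjusted threshold.

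The other 14-3-3 genes of PP cells did not pass the test either. *Ywhag* (14-3-3γ) was at 100.2, 88.5 and 80.7 CPM in the WT libraries and 111, 115 and 109 CPM in the KO libraries, so that all 3 KO values were above all 3 WT values, with a log2 fold change of 0.33 ± 0.15 (95% interval 0.028 to 0.63, adjusted p = 0.989). *Ywhae*, at 414 ± 35.4 CPM in WT and 403 ± 37.3 in KO, and *Ywhaq*, at 369.5 ± 28.4 and 356 ± 21.4, were the most abundant of the family. Their log2 fold changes were −0.042 and −0.051, with intervals of −0.33 to 0.24 and −0.33 to 0.22. *Ywhab* and *Ywhah* changed by 0.013 and −0.053, and *Sfn* had 45 UMIs in the members and was not tested. *Pyy* was at 93197, 107430 and 171680 CPM in WT and 118560, 134980 and 164750 CPM in KO, a log2 fold change of 0.17 ± 0.18 with an interval of −0.21 to 0.55.

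No gene list held a called gene between the genotypes, and the lists are described by sign and median. The OXPHOS list held genes of mitochondrial respiration. All 21 were tested in PP cells, of which 18 had a positive and 3 a negative log2 fold change, and the median was 0.084, against −0.0035 over all genes. The list came from genes measured or named in the study of these mice, so it is no independent evidence of a direction. Of the immediate early genes 14 were tested, 2 were positive and 12 negative, with a median of −0.17. Of the ER stress and chaperone genes 18 were tested, 12 positive and 6 negative, with a median of 0.06. Of the exocytosis genes 24 were tested, 11 positive and 13 negative, with a median of −0.022. The lowest adjusted p in each of these 4 lists was 0.989.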

How the data were processed

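UMI counts of 32285 genes per barcode were deposited by the authors as 1 matrix per library, made with Cell Ranger 6.0.2 on mm10. Islet cells were loaded on the Chromium 3′ v3.1 platform, and no normalization had been applied to the deposited counts. Barcodes were selected and their counts summed per library and class with Python 3.11.15. Sums were tested with edgeR 4.0.16 (quasi-likelihood, TMM, Benjamini-Hochberg adjustment) in R 4.3.3, the genotypes as KO over WT and the classes with the library as a block. The class limits were at least 12% *Gcg* for α cells, at least 4% *Sst* for δ cells and at least 20% insulin for β cells. Genes needed a UMI in over 15% of the cells of a group. DESeq2 1.42.0 was an alternative, and Scrublet came from scanpy 1.11.5. Library means were compared by exact permutation (scipy 1.17.1). The fits were tested on simulated data. The members and gene lists were chosen with earlier results of these data known. Named genes were the 15 highest and 15 lowest against all 3 classes, the 14-3-3 genes, the 5 lowest p in each direction between genotypes, and members of the lists. All libraries were separate mice per the labels, and the counts of same-genotype PP sums differed by more than sampling noise (chi-square per degree of freedom 3.18 to 5.86). Some genes that these rules name are not reported here.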

Additional observations from a re-analysis of the deposited data

Results flagged for a closer look

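The change of *Ywhaz* between KO and WT differed between cell classes. In PP cells the log2 fold change was −0.21 ± 0.16 and in β cells −2.48 ± 0.25, and the difference between them was 2.29 ± 0.17 (edgeR, genotype by class term, adjusted p = 2.3e-07, 3 libraries per genotype). Groups of 3 libraries are too small for the test for single outlying samples, so none was run.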

How the results depend on the processing

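The number of genes called between KO and WT PP cells, 0, was 53 with no filter on sparse genes (23 higher, 30 lower), 2 with at least 20% *Ppy* (*Apoe* and *Gm10076*), 1 without the members rich in *Igkc*, *Apoe* or *Cd74* (*Gm10076*, an alternative chosen after seeing the data) and 12 in a fit with a replicate block (*Fbp1*, *Fgl2*, *Rpl9-ps6*, *Iapp*, *Ttr*, *Igkc* and *Ighm* higher, *Gm10076*, *Fgb*, *Rpl35*, *Apoe* and *Cd74* lower). It was 0 to 2 with 1 library left out, with 1 call without WT replicate 1 (*Gm10076*) and 2 without KO replicate 2 (*Apoe* and *Cd74*), and 0 with DESeq2. The cause was not tested. The labels do not say that a number links mice, same-numbered libraries had correlations of 0.0025, 0.35 and 0.19 over 5517 genes, and 3 of the 6 libraries correlated best with their own number, so the numbers were not taken as pairs. *Ywhaz* in PP cells changed by −0.21 with the block and by −0.41 to −0.08 with 1 library left out, and it was not called under any setting run. Its difference from β cells was 2 to 2.58 under the alternatives run for it, which did not include a fit with the replicate number as a block or one without the library block. With no filter on sparse genes, 1001, 1365 and 2633 genes were called against α, δ and β cells. With 1 library left out the counts were 486 to 555, 743 to 811 and 1324 to 1450. With under 2% *Gcg* they were 615, 779 and 1410. The difference in the share of PP cells was −0.314 to 0.408 percentage points with 1 library left out, and its sign turned without WT replicate 3 (0.408) and KO replicate 2 (0.129). That in median UMIs was −5956 to 155, turning without WT replicate 1 (155), and that in median genes −635 to −81.5. *S100a4* against α cells turned to 0.43 and *Cd79a* against δ cells to −0.29 without called doublets, and *Slc38a5* against β cells to −1.2 with under 2% *Gcg* (1.45 in all members). Of 248 calls of named genes, 219 held in every alternative. The 20 cells of WT replicate 1 limit what can be seen in sparse genes.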

Other observations

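*Folr1*, *Calb1* and *Sytl2* are on none of the lists and were chosen after their values were seen. *Folr1* (folate receptor 1) was called higher than in α, δ and β cells, by 3.01, 1.07 and 3.67 on the log2 scale. *Calb1* (calbindin, a calcium buffer) was higher than in δ and β cells, by 1.35 and 5.35, with a difference of 0.92 from α cells that was below the required size, and had a UMI in 92% of PP cells and 3.85% of the macrophage-marker barcodes. *Sytl2*, a synaptotagmin-like protein of vesicle transport, was higher than in all 3 classes, by 1.03, 5.24 and 6.14. *Ttr* (transthyretin) was lower than in α cells (−3.67) and higher than in δ cells (1.89). *Rbp4*, the retinol carrier, was lower than in α and δ cells (−1.2 and −3.68) and higher than in β cells (2.03).

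Of 18 cell cycle genes 4 passed the filter on sparse genes, and none of the 4 was called against any class or between the genotypes. *Mki67*, a marker of dividing cells, had a UMI in 2.9% of PP cells, and in 0 of the 276 after thinning to 2000 UMIs.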
